A study of Mus musculus with 24 samples.

Results

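The comparison described here is that of metformin with no metformin in mice on the control diet, CDmetf vs. CD, in the ileum, the last stretch of the small intestine. It took up 12 of the 24 libraries of the series, 6 per group, chosen by their labels alone, and 13505 of the 55536 genes of the count table had enough reads to be tested. All animals were C57BL/6N mice, an inbred laboratory strain, 4 to 5 weeks old at the start and kept in single-sex cages of 3, of which 1 animal per cage was sampled. Both groups received the control diet with 10 kcal% fat for 20 weeks and then either went on without the drug (CD) or received metformin in the drinking water at 50 mg/kg/day for a further 10 weeks (CDmetf). Each group held 3 females (F1 to F3) and 3 males (M1 to M3), and no animal carried a transgene. The other 12 libraries, from mice on a high-fat diet (60 kcal% fat) with and without the drug, entered only the shared estimate of the spread and the test of the interaction.

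Metformin is an oral antidiabetic drug that reaches very high concentrations in the gut wall, inhibits respiratory complex I and activates the energy sensor AMPK. The ileum holds an absorptive epithelium with goblet, Paneth, tuft and enteroendocrine cells, and beneath it a lamina propria with plasma cells, macrophages and T cells. Organised lymphoid follicles (Peyer's patches and isolated follicles), rich in B cells and covered by a specialised epithelium, occur at intervals along the gut, so that the share of B cells depends on where a piece of tissue is taken. In bulk RNA, fewer cells of a type and less RNA per cell cannot be told apart.

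Epithelial and lymphoid genes were described apart, and expression is given as CPM, read counts relative to library sizes scaled with TMM, edgeR's trimmed mean normalisation. The 12 libraries held between 2777387 and 40384234 reads on genes. CD M3 stood apart, with 85.43% of its reads in 10 genes, ribosomal RNA among them, where the other 11 libraries had 9.22% to 16.82%, and values without it are given where they matter. Reads of sex-linked genes matched the labelled sex in 12 of these 12 libraries, while 2 libraries of the high-fat group did not match theirs. The ileal bile acid transporter Slc10a2 ranged from 22.4 to 915 CPM in CD and from 14.3 to 1348 CPM in CDmetf, and the ileal bile acid-binding protein Fabp6 from 33.8 to 2599 CPM and from 35.2 to 2618 CPM. The ileal markers thus varied within both groups over a wide range, and their part in the results below was not tested.

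No gene differed between CDmetf and CD at a false discovery rate (FDR) of 0.05 in edgeR's quasi-likelihood test, the percent called being 0.0 of 13505 genes. The smallest FDR was 0.963, so the unadjusted p-values below describe single genes and mark no call. At an unadjusted p under 0.05 there were 315 genes with a higher level in CDmetf (2.33% of those tested) and 360 with a lower level (2.67%), which together make 5.0%. Of all genes 46.6% had a positive and 53.4% a negative logFC (the log2 ratio of CDmetf to CD), with a median of -0.016. DESeq2 on the same counts called 4 genes, namely Lars2, Gm15564, CT010467.1 and Ighv14-3, of which CT010467.1 and Lars2 alone took 34.56% and 10.66% of the reads of CD M3. The voom method with sample quality weights called 10 genes, all higher in CDmetf. The 315 and 360 genes did not fall evenly on the compartments, as 67 of the higher ones stood in lists of lymphoid genes, 22 in myeloid or interferon lists and 4 in epithelial lists, while of the lower ones 1 was lymphoid, 0 were myeloid and 2 were epithelial.

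Ighv14-3 encodes a heavy-chain variable segment of immunoglobulins and lies in the heavy-chain locus, chr12:114059845-114060321 on the minus strand (GRCm38). Bases 52 to 351 of its 351 coding bases are printed. Among the genes named here this segment had the smallest p for CDmetf vs. CD over both sexes. Capitals mark the bases that differ from Ighv14-1, the nearest of 59 segments of the same length, from which 13 bases differed over the whole coding sequence (96.3% identity).
Ighv14-3: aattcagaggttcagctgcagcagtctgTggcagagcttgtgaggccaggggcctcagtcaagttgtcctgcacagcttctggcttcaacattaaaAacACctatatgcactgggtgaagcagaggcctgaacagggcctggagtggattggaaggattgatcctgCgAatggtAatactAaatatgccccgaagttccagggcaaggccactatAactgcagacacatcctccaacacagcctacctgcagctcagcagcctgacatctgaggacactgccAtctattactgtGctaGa
Of the 300 windows of 100 bases in its transcript, 300 were found in no other annotated transcript. The read length of the RNA libraries is not given in the sources used here. Rearranged and mutated copies in B cells differ from these letters.

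Ighv14-3 was listed at 0.466 CPM in the lowest, 1.24 CPM at the median and 1.83 CPM in the highest CD library, and at 2.64, 6.17 and 17.3 CPM in CDmetf. All CDmetf libraries therefore lay above all CD libraries, a separation seen for 0.0666% of the genes tested in the higher and 0.0963% in the lower direction. The logFC was 2.58 (SE 0.60, unadjusted p of 0.000317, FDR = 0.963 in edgeR's quasi-likelihood test). These values rested on 2 to 31 reads per CD library and 9 to 495 reads per CDmetf library. As a share of all heavy-chain V reads of a library, Ighv14-3 made up 0.137% to 0.348% in CD and 0.377% to 2.85% in CDmetf. These did not overlap either, but the gap was narrow. It lay between CD F3, with 31 of 8919 reads, and CDmetf F1, with 10 of 2653 reads. The shares rest on the same Ighv14-3 reads as the CPM values. With the B-cell score of each library as a covariate the logFC of Ighv14-3 was 2.18, and in DESeq2 its FDR was 0.0381.

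Blnk encodes the linker protein that couples the activated B-cell receptor to its signalling enzymes, and Rel encodes c-Rel, the NF-κB subunit most active in lymphocytes. The 250 bases upstream of their transcription starts are printed, together with those of Prkcb, the protein kinase Cβ of the same receptor pathway, because the octamer ATGCAAAT, the classic element of B-cell promoters, or a κB pattern occurs in them. The sequences are from RefSeq (GRCm38.p6), and the capitals mark the match on either strand, of ATGCAAAT in Blnk and Prkcb and, in Rel, of the κB pattern (GGGA, any 4 bases and CC).
Blnk, chr19:40994222-40994471, minus strand: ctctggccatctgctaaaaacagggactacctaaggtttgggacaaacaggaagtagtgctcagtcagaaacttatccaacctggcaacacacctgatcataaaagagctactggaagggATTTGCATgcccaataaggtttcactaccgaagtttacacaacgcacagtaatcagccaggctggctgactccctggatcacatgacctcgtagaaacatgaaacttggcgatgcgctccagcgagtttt
Prkcb, chr7:122288875-122289124, plus strand: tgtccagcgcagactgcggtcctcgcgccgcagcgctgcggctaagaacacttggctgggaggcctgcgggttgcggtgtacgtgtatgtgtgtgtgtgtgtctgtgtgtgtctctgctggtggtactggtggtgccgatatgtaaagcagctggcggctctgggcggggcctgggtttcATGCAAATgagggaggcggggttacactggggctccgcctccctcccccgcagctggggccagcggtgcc
Rel, chr11:23770970-23771219, minus strand: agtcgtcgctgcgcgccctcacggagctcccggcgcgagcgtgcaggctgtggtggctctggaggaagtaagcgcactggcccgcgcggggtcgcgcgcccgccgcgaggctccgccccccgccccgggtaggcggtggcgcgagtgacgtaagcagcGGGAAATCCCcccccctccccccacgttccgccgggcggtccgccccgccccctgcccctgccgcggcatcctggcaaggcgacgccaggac
The octamer stood 130 bases before the start in Blnk and 70 bases before it in Prkcb. It was present in 1.6% of 32851 promoters, in 2 of the 16 receptor-signalling genes with a promoter sequence and in 0 of 16 B-cell marker genes. The κB pattern stood 92 bases before the start of Rel and was present in 17.6% of all promoters and in 9 of 23 NF-κB pathway genes. The share of all promoters counts each promoter, while the list counts take a gene with a match in any of its promoters, so they are not like measures. A match is a description of the letters in these windows.

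Blnk ranged from 13.3 to 23.8 CPM in CD with a median of 17.96 CPM, and from 17.5 to 34.2 CPM in CDmetf with a median of 27.2 CPM. CDmetf F1, F2, M1 and M2 lay above every CD library, and CDmetf F3 and M3 within the CD range. The logFC of Blnk was 0.50 (SE 0.21, unadjusted p of 0.0228). It was 0.04 when the libraries were scaled to pan-leukocyte genes, where the median of all genes was -0.46. Rel had 17.9, 26.2 and 35.96 CPM as the lowest, median and highest CD level and 29.0, 32.9 and 50.4 CPM in CDmetf. Each CDmetf library exceeded all CD libraries but CD F2. The logFC of Rel was 0.46 (SE 0.19, unadjusted p of 0.0250), and 0.39 without CD M3, where the unadjusted p was 0.0582.

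**Figure D1:**
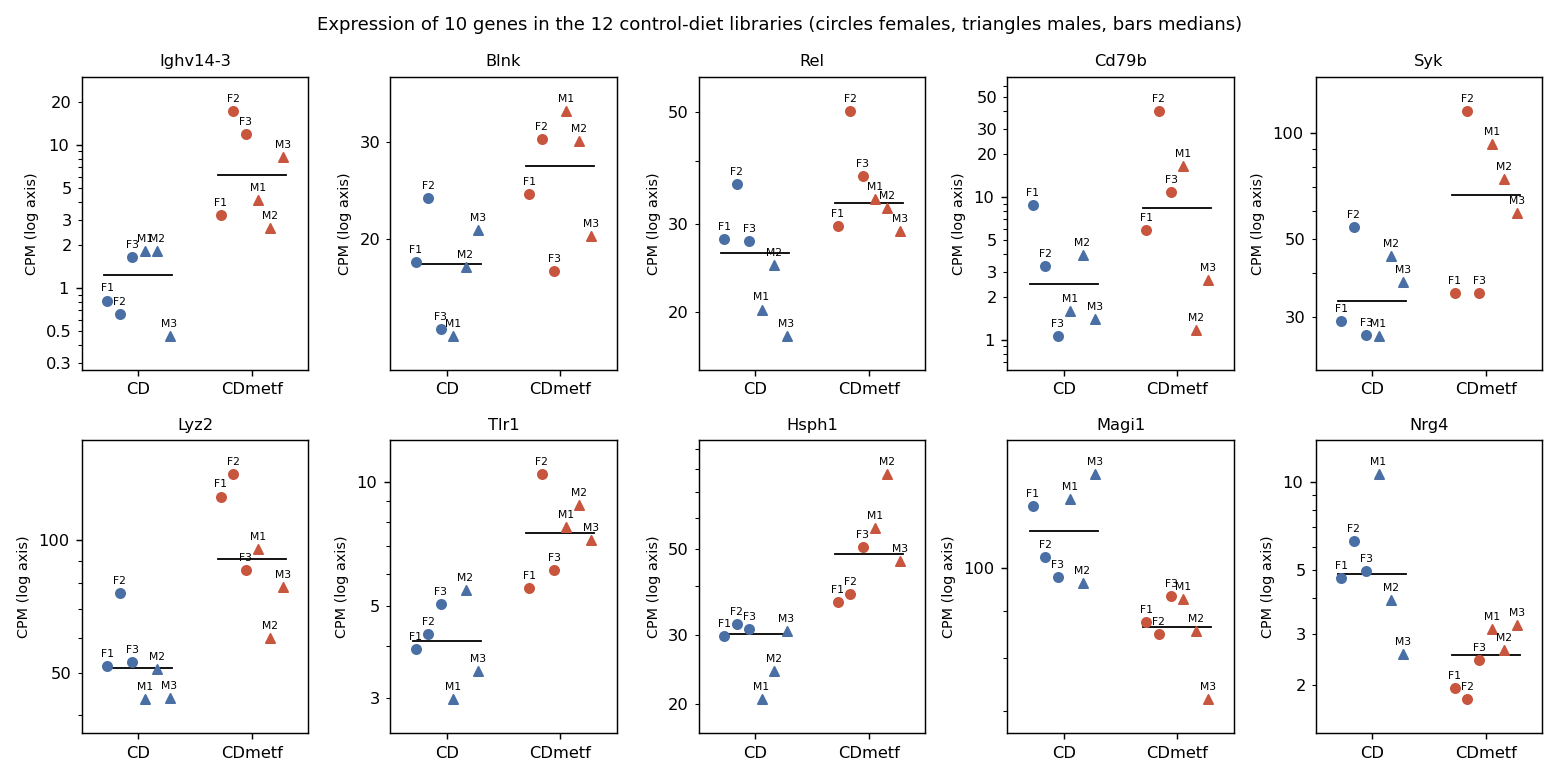
Expression of 10 genes in CPM on log axes, 1 point per library (circles females, triangles males), with bars at the group medians. Ighv14-3, Tlr1, Hsph1 and Magi1 do not overlap between CD and CDmetf, while Cd79b is highest in CDmetf F2, F3 and M1 and, among controls, in CD F1.

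The lymphoid lists stood highest of all compartments. Of 532 lymphoid genes listed, V segments included, 233 were tested. Some of them may have passed the filter through high reads in a single group. Of the 233, 183 had a positive logFC, with a median of 0.57 against -0.016 over all genes. At an unadjusted p under 0.05, 67 were higher and 1, Mybl1, was lower. The 22 B-cell markers were all tested, all had a positive logFC, 19 were higher at that p, and their median was 1.99. Summed over the list, B-cell expression was 40.5, 75.5 and 173 CPM as the lowest, median and highest CD level and 58.0, 155 and 773 CPM in CDmetf. The CDmetf libraries F2, F3 and M1, at 773, 243 and 334 CPM, lay above every CD library, whereas F1, M2 and M3, at 67.2, 58.0 and 59.0 CPM, lay within the CD range. High B-cell markers were thus seen in 3 of 6 treated animals. The pan-epithelial sum, for comparison, was 9171 to 14955 CPM in CD and 10523 to 15578 CPM in CDmetf.

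**Figure D2:**
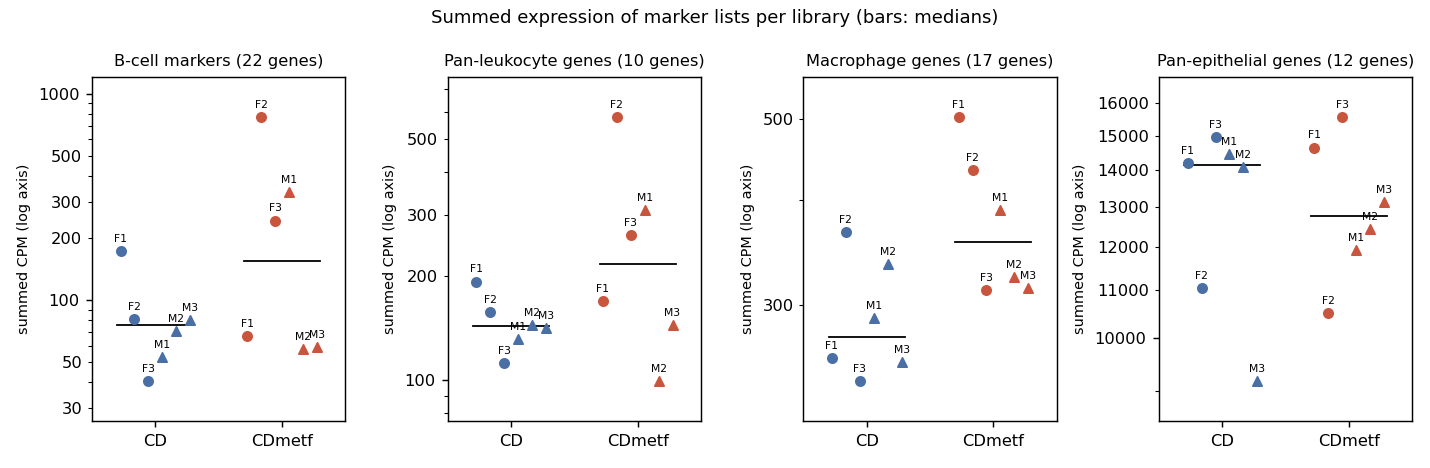
Summed CPM of 4 marker lists per library on log axes, with bars at the medians. B-cell and pan-leukocyte sums are high in CDmetf F2, F3 and M1, and the pan-epithelial sums of both groups cover the same range.

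Ms4a1, which encodes CD20, had 0.532, 0.738 and 7.39 CPM in CD and 0.879, 6.90 and 48.6 CPM in CDmetf (logFC = 2.78, SE 0.92, unadjusted p of 0.00636). Cd79b, a signalling chain of the B-cell receptor, had 1.06, 2.45 and 8.79 CPM in CD and 1.17, 8.40 and 40.2 CPM in CDmetf (logFC = 2.04, SE 0.64). For both genes the groups overlapped, CD F1 being the highest control and CDmetf F2, F3 and M1 the highest treated libraries. Without CDmetf F2 the number of B-cell markers higher at an unadjusted p under 0.05 was 8 instead of 19. With all high-fat libraries left out it was 11, but only 14 of the 22 markers then passed the filter. All 14 had a positive logFC. With a minimum of 10 reads in every sample it was 1, as most markers then failed the filter. Without CD M3 it was 20, against 3.49% of all genes higher and 2.4% lower.

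Within B-cell receptor signalling, 18 of 20 members had a positive logFC (median 0.40), and 5 were higher at an unadjusted p under 0.05, a count that was 2 without CDmetf M1, 3 without CDmetf F2 and 10 without CDmetf M2. Syk, the kinase that starts the cascade, had 26.6, 33.5 and 54.1 CPM in CD and 35.2, 66.5 and 115 CPM in CDmetf (logFC = 0.87, SE 0.26, unadjusted p of 0.00311). CDmetf F2, M1, M2 and M3 lay above every CD library. Prkcb reached 5.22 to 10.6 CPM in CD and 5.87 to 46.2 CPM in CDmetf (logFC = 1.05, SE 0.42). The inhibitory Fc receptor gene Fcgr2b had 4.58 to 7.05 CPM in CD and 5.86 to 9.24 CPM in CDmetf (logFC = 0.58, SE 0.21), and 4 CDmetf libraries exceeded all controls. Unlike most B-cell markers, Syk, Blnk and Fcgr2b are also made by myeloid cells.

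Of the 15 germinal centre genes only 7 were tested. Cxcl13, the chemokine that draws B cells into follicles, had 1.06, 2.29 and 6.65 CPM in CD and 2.64, 9.58 and 36.6 CPM in CDmetf (logFC = 1.96, SE 0.70, unadjusted p of 0.0107), and Ltb, the lymphotoxin β gene needed for follicle structure, had a logFC of 1.40 (SE 0.67). Mybl1, a transcription factor of dividing germinal centre B cells, went the other way, from 1.70 to 4.29 CPM in CD to between 0 and 3.29 CPM in CDmetf (logFC = -0.78, SE 0.35). For Cxcl13 and Ltb the high libraries were again CDmetf F2, F3 and M1, which Mybl1 did not share.

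NF-κB pathway genes stood close to 0 as a list, with 17 of 27 logFC values above 0, a median of 0.10 and 2 members, Rel and Nfkbie, higher at an unadjusted p under 0.05, against 0 without CDmetf F2. The inhibitor gene Nfkbie had 2.10, 4.38 and 6.82 CPM in CD and 4.39, 6.59 and 13.4 CPM in CDmetf (logFC = 0.73, SE 0.32). Unlike the promoter of Rel, the 250 bases upstream of Nfkbie held 0 matches of the κB pattern. Of the other subunits, Nfkb2 (p100/p52 precursor) had 28.9 to 40.9 CPM in CD and 26.7 to 54.8 CPM in CDmetf (logFC = 0.32, SE 0.18), and Rela (p65) had 24.8 to 44.7 and 28.9 to 52.7 CPM (logFC = 0.19, SE 0.14). Nfkb1 (p105/p50 precursor) had medians of 98.9 and 95.4 CPM. On the pan-leukocyte scale the logFC of Rel, Nfkb2 and Rela turned to -0.07, -0.21 and -0.25. The median of all genes moved to -0.46 on that scale, so all 3 stayed above it.

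Plasma cell genes, which mark the antibody-secreting cells of the lamina propria, differed less than B-cell markers, with 9 of 12 tested members above 0, a median of 0.15 and 2 higher at an unadjusted p under 0.05. These were Slamf7, at 4.68 to 8.25 CPM in CD and 5.27 to 14.6 CPM in CDmetf (logFC = 0.55, SE 0.20), and Irf4, at 5.86 to 12.5 and 5.27 to 20.9 CPM (logFC = 0.57, SE 0.26). Igha, the constant region of the mucosal antibody class, had a median of 1440 CPM in CD and 1645 CPM in CDmetf. Ighm and Ighd, the constant regions of naive B cells, were spread far more widely. Ighm had 11.1, 28.3 and 60.0 CPM in CD and 10.8, 37.3 and 299 CPM in CDmetf (logFC = 1.28, SE 0.71), and Ighd had 0.426 to 11.7 and 0.293 to 102 CPM (logFC = 2.52, SE 1.05). Both peaked in CDmetf F2.

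Of 183 heavy-chain V segments 48 passed the filter and of 160 kappa V segments 45, so the counts below cover the more abundant segments only. Among them 36 of 48 and 30 of 45 had a positive logFC, as had 46.6% of all genes tested. At an unadjusted p under 0.05, 12 and 7 were higher, against 2.33% of all genes. A segment could pass this filter through high reads in a single group. Without a filter 89 of 135 and 85 of 118 had a positive logFC, against 52.3% of all genes with a read. At that p 29 and 19 were then higher and 4 and 1 lower, against 912 and 778 of all 36824 genes. Single segments were dominated by single animals. Ighv1-7 had 287 CPM in CDmetf F3 and at most 18.4 CPM elsewhere (logFC = 4.61, SE 1.26), where it made up 37.8% of 31334 heavy-chain V reads. Igkv6-32 had 24.8 CPM in CDmetf F1 and 48.4 CPM in CDmetf M1, and at most 0.784 CPM in the other 10 libraries (logFC = 3.92, SE 1.19). Ighv1-18 peaked at 62.3 CPM in CDmetf F2 (logFC = 2.93, SE 0.86). Controls had such segments too, Ighv4-1 taking 41.1% of the heavy-chain V reads of CD M1 and Ighv6-3 37.4% of those of CD F2. Segments spread over more animals were Igkv14-111, at 3.94 to 7.24 CPM in CD and 4.22 to 26.2 CPM in CDmetf (logFC = 1.36, SE 0.36), and Igkv6-15, at 1.63 to 16.2 and 7.77 to 33.7 CPM (logFC = 1.85, SE 0.57). Reads that map to several places were counted apart from the genes, so near-identical segments may lose reads. Rearranged and mutated copies also differ from the annotated letters. Values of single segments, Ighv14-3 included, are therefore uncertain.

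T-cell genes were mostly too low to test, with 8 of 22 passing, 8 of 8 above 0 and a median of 0.70, which was 0.28 without CDmetf F2. Without a filter all 22 had a positive logFC, as had 52.3% of all 36824 genes with a read, and 10 were higher at an unadjusted p under 0.05, as were 2.48% of those genes. Cd28, the co-stimulatory receptor, had 1.81, 2.71 and 3.92 CPM in CD and 1.76, 3.88 and 11.3 CPM in CDmetf (logFC = 0.87, SE 0.35), and Cd4 had 5.00 to 17.5 and 7.62 to 26.4 CPM (logFC = 0.61, SE 0.30). Of 15 genes of cytotoxic intraepithelial lymphocytes, 2 were tested and 0 had a positive logFC, while without a filter 10 of 15 had one (median 0.09).

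Adhesion and homing genes, which guide lymphocytes from the blood into the gut wall, lay above 0 in 12 of 12 tested members (of 14 listed), with a median of 0.64 and 6 higher at an unadjusted p under 0.05. Without CDmetf F2 the count was 1 and the median 0.355, and without CDmetf M1 the count was 3. Vcam1, an adhesion molecule of vessels and stroma, had 8.94, 12.1 and 14.2 CPM in CD and 10.6, 19.7 and 29.4 CPM in CDmetf (logFC = 0.71, SE 0.22, unadjusted p of 0.00383), and all CDmetf libraries except M2 lay above every control. Madcam1, the mucosal vascular addressin, had 0.798 to 3.40 CPM in CD and 1.55 to 14.9 CPM in CDmetf (logFC = 1.30, SE 0.46). Icam1 had 2.87 to 5.94 and 5.22 to 11.3 CPM (logFC = 0.66, SE 0.27). The receptors Cxcr4 (logFC = 1.11, SE 0.42) and S1pr1 (logFC = 0.96, SE 0.38), which govern the retention and egress of lymphocytes, were highest in CDmetf F2 with 19.7 and 39.9 CPM. The 10 pan-leukocyte genes had a median of 0.81, 8 of them at an unadjusted p under 0.05, and this count was 1 without CDmetf F2 (median 0.45), 2 without CDmetf F3 and 3 without CDmetf M1. The list included Fermt3 (logFC = 0.75, SE 0.25), Cd53 (0.88, SE 0.35) and Laptm5 (0.69, SE 0.28).

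Myeloid, antigen presentation and interferon genes were the other compartment with a raised median, 0.34 over 104 tested of 135 listed genes, 92 above 0, 22 higher and 0 lower at an unadjusted p under 0.05. Lyz2, the lysozyme of macrophages, had 43.5, 51.3 and 75.9 CPM in CD and 60.0, 90.7 and 142 CPM in CDmetf (logFC = 0.88, SE 0.25, unadjusted p of 0.00208). All CDmetf libraries but M2 lay above all controls, and M2 lay above all but CD F2. Fcgr4, an activating Fc receptor gene of monocytes and macrophages, had 1.40 to 3.63 CPM in CD and 2.87 to 6.55 CPM in CDmetf (logFC = 1.02, SE 0.29). Sirpa had 16.5 to 28.7 and 20.6 to 42.7 CPM (logFC = 0.54, SE 0.19), and the complement gene C1qa 15.9 to 35.3 and 19.3 to 43.4 CPM (logFC = 0.44, SE 0.16). Unlike B-cell markers, Lyz2 was not high in F2, F3 and M1 alone, since CDmetf F1 reached 126 CPM. Summed over 17 macrophage genes, expression was 243 to 367 CPM in CD and 312 to 503 CPM in CDmetf, and the median logFC of the 16 tested was 0.34.

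Genes of Toll-like receptors and their partners lay above 0 in 14 of 14 tested members, with a median of 0.43. Tlr1, the partner of TLR2 in sensing bacterial lipopeptides, had 2.98, 4.12 and 5.49 CPM in CD and 5.54, 7.50 and 10.4 CPM in CDmetf, without overlap (logFC = 0.83, SE 0.23, unadjusted p of 0.00177). Ly86 had 2.10 to 6.08 and 3.81 to 11.9 CPM (logFC = 0.80, SE 0.25), and Unc93b1, which carries nucleic acid-sensing receptors to endosomes, 22.6 to 42.6 and 25.8 to 63.2 CPM (logFC = 0.38, SE 0.16). MHC class II genes lay above 0 in 10 of 10 tested members (median 0.46). At an unadjusted p under 0.05, 4 were higher, and 1 without CDmetf F2. Their median was -0.08 in males, with 4 of 10 above 0, and 0.89 in females, with 10 of 10. The sexes differed in 3 of 10 at that p, and in 0 without CD M3, against 5.21% and 8.67% of all genes. Among these genes, H2-Aa had 82.2, 116 and 165 CPM in CD and 81.1, 183 and 281 CPM in CDmetf (logFC = 0.56, SE 0.20). H2-DMb2 (logFC = 1.66, SE 0.62) and H2-Eb2 (logFC = 2.27, SE 0.89) were high in CDmetf F2, F3 and M1 with 26.2, 8.27 and 11.9 CPM and 15.2, 7.42 and 6.48 CPM.

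Interferon-induced GTPases, which attack vacuoles of intracellular microbes, were above 0 in 20 of 20 tested members of 27 listed, with a median of 0.50 and 9 higher at an unadjusted p under 0.05. Without CDmetf F3 the count was 2 and the median 0.33. Irgm1 had 18.02, 18.4 and 27.4 CPM in CD and 17.9, 25.3 and 58.8 CPM in CDmetf (logFC = 0.51, SE 0.17), Igtp 2.82 to 5.28 and 3.52 to 31.4 CPM (logFC = 1.09, SE 0.40), and Gbp9 6.17 to 10.0 and 6.44 to 14.5 CPM (logFC = 0.50, SE 0.18). CDmetf F3 was the highest library for Irgm1 and Igtp, and without it the logFC of Igtp was 0.38. Of the MHC class I genes 12 of 16 lay above 0 (median 0.13), and H2-M3 had a logFC of 0.69 (SE 0.29). The class I median was -0.12 in males, with 4 of 16 above 0, and 0.37 in females, with 16 of 16. The sexes differed in 3 of 16 at an unadjusted p under 0.05, against 5.21% of all genes. Without CD M3 they differed in 6 of 16, against 8.67%.

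**Figure D3:**
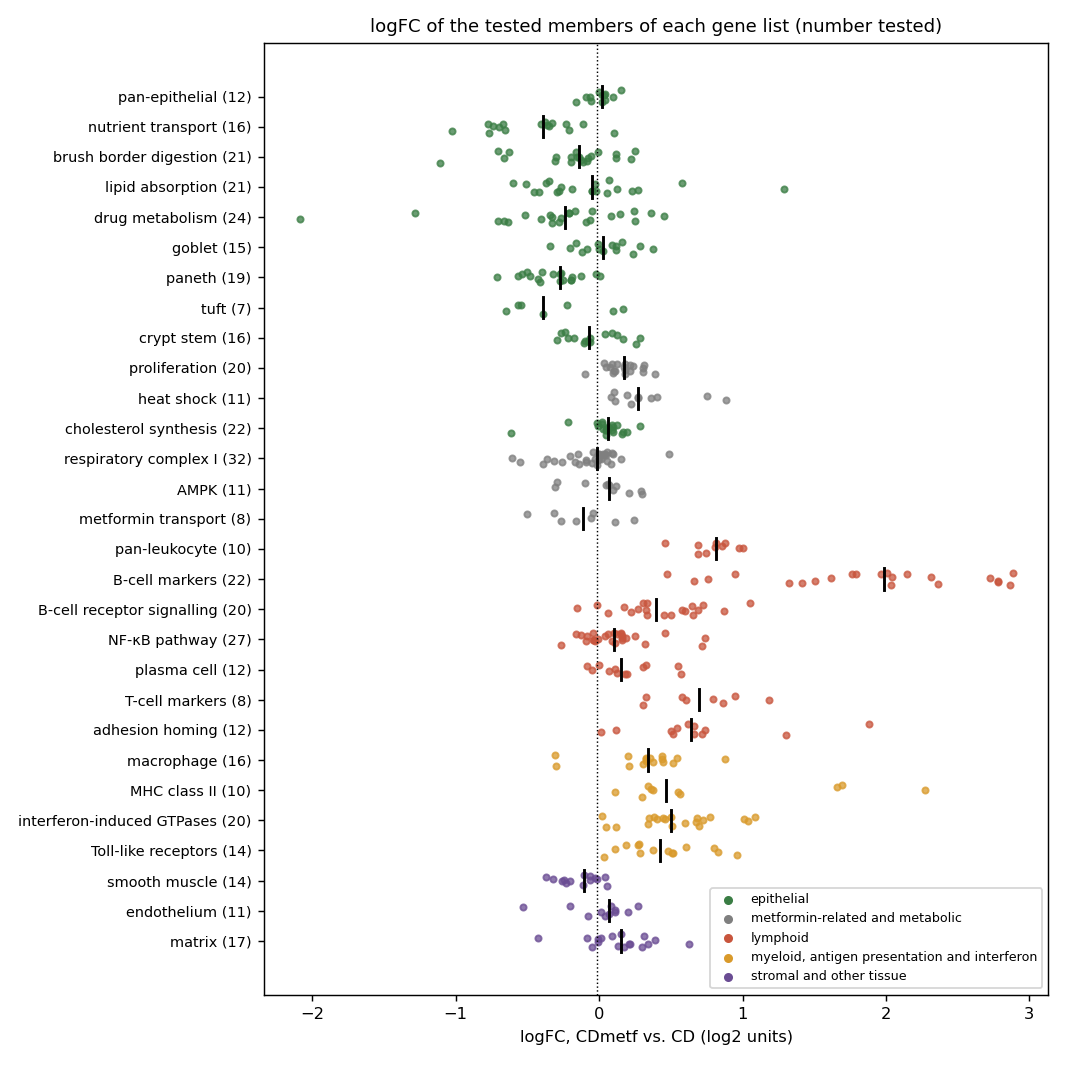
logFC (log2) of each tested member of 29 gene lists, 1 point per gene, with bars at list medians, a dotted line at the median of all genes (-0.016) and the number tested in brackets. Lymphoid and myeloid lists lie to the right, and nutrient transport, Paneth and tuft cell lists to the left.

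Epithelial genes stayed close to the background. Of 283 epithelial genes listed 254 were tested, 108 had a positive and 146 a negative logFC, and the median was -0.05. At an unadjusted p under 0.05, 4 were higher and 2 lower, that is fewer than the 2.33% and 2.67% of all genes. The 12 pan-epithelial genes had a median of 0.02, and Epcam, the epithelial adhesion molecule, had medians of 1514 CPM in CD and 1482 CPM in CDmetf. Nutrient transporters and brush-border digestive genes leaned downwards, with 1 of 16 (median -0.39) and 4 of 21 (median -0.14) above 0. Lipid absorption genes stayed nearer the background, with 7 of 21 above 0 and a median of -0.05. In each of these lists 0 members had an unadjusted p under 0.05. The transporter median was -0.21 without CD M1, and that of the digestive genes -0.01 without CD M2 and -0.29 without CD M3. Sis, the sucrase-isomaltase, had 1842 to 11270 CPM in CD and 1385 to 5730 CPM in CDmetf (logFC = -0.63, SE 0.47), and without CD M1 the logFC was -0.25. Slc6a20a, a proline transporter, had 82.9 to 208 and 76.8 to 179 CPM (logFC = -0.36, SE 0.21). The highest Sis level was that of CD M1, the control with the lowest Fabp6, and the part of position along the gut was not tested.

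Secretory lineages were likewise not called. Of 19 tested Paneth cell genes 1 lay above 0, with a median of -0.27 (-0.168 without CDmetf F2) and 0 at an unadjusted p under 0.05, as in Defa24, an α-defensin, with 739 to 1586 CPM in CD and 717 to 1100 CPM in CDmetf (logFC = -0.43, SE 0.21), and Ang4 with 293 to 776 and 178 to 462 CPM (logFC = -0.54, SE 0.27). Near-identical α-defensin genes may lose reads that map to several places. Goblet cell genes had a median of 0.02, and their transcription factor Spdef had 15.6 to 21.4 CPM in CD and 10.4 to 22.3 CPM in CDmetf (logFC = -0.35, SE 0.17). Among 7 tested tuft cell genes (median -0.39) Trpm5, the taste-transduction channel, had 17.5 to 32.4 and 7.62 to 20.4 CPM (logFC = -0.56, SE 0.26). Genes of the follicle-associated epithelium lay above 0 in 6 of 6 tested members of 10 listed, with a median of 0.41, among them Tnfaip2 at 3.35 to 9.90 CPM in CD and 6.71 to 16.1 CPM in CDmetf (logFC = 0.69, SE 0.23) and Marcksl1 (logFC = 0.61, SE 0.29). This epithelium covers the lymphoid follicles.

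Drug-metabolising enzymes had 6 of 24 members above 0, a median of -0.24 and 1 member lower at an unadjusted p under 0.05. Without CD M3 the median was -0.385 and 5 were lower at that p, and without CD M1 the median was -0.105. Ugt2b36, a glucuronosyltransferase, had 6.27 to 16.7 CPM in CD and 3.52 to 9.91 CPM in CDmetf (logFC = -0.70, SE 0.30), and Ces2a, a carboxylesterase, 58.5 to 135 and 14.3 to 74.5 CPM (logFC = -0.67, SE 0.33). In cholesterol synthesis 18 of 22 members lay above 0 with a median of 0.06 (-0.028 without CDmetf M2), in fatty acid oxidation 15 of 22 with a median of 0.19. Acot2, a mitochondrial acyl-CoA thioesterase, had 3.09 to 9.90 and 4.51 to 20.6 CPM (logFC = 0.84, SE 0.35).

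Of the 12 genes lowest in p among those lower in CDmetf, Magi1, a scaffold of cell junctions, had 96.4, 110 and 126 CPM in CD and 72.2, 86.5 and 93.3 CPM in CDmetf, without overlap (logFC = -0.35, SE 0.11, unadjusted p of 0.00368). Nrg4, an epithelial growth factor ligand of ErbB4, had 2.56, 4.82 and 10.7 CPM in CD and 1.79, 2.54 and 3.23 CPM in CDmetf, where only CD M3 fell within the CDmetf range (logFC = -1.07, SE 0.32). Nck2, an adaptor of the cytoskeleton, had 52.2 to 67.4 and 42.9 to 59.7 CPM (logFC = -0.31, SE 0.09). Tmem88b did not overlap, with 1.98 to 6.60 CPM in CD and 0.518 to 1.89 CPM in CDmetf (logFC = -1.52, SE 0.44). Also among the 12 were Lrig3 (-0.35, SE 0.10), H1f0, a linker histone (-0.41, SE 0.12), Cirbp, a cold-inducible RNA-binding protein (-0.44, SE 0.14), Hexdc (-0.59, SE 0.17), Arl4d (-0.63, SE 0.19), Slc26a10 (-0.97, SE 0.30), Ccdc57 (-0.82, SE 0.26) and Wdr54 (-1.22, SE 0.40). The 12 on the other side included, beside those above, St6gal1, a sialyltransferase, at 10.7 to 27.2 CPM in CD and 18.8 to 33.7 CPM in CDmetf (logFC = 0.66, SE 0.18), St8sia6, another sialyltransferase (logFC = 0.93, SE 0.24), and Renbp (logFC = 1.46, SE 0.41), which peaked at 22.9 CPM in CDmetf F2.

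Whether lymphoid genes stand above or epithelial genes below depended on the reference. With library sizes taken from pan-epithelial genes, B-cell markers had a median of 2.03, 19 of 22 being higher at an unadjusted p under 0.05 against 1.21% of all genes (1.61% lower). The pan-epithelial median was then 0.00, as follows from the scaling. With library sizes taken from pan-leukocyte genes the median of all genes moved to -0.46, 26 genes (0.193%) were higher and 1197 (8.86%) lower at an unadjusted p under 0.05, and the epithelial median was -0.47. B-cell markers kept a median of 0.88 on that scale, 9 of 22 at an unadjusted p under 0.05. With the B-cell score as a covariate the B-cell median was 0.01, as follows from its construction, and 0 of 22 were higher at an unadjusted p under 0.05 (2.27% of all genes, with 3.47% lower).

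**Figure D4:**
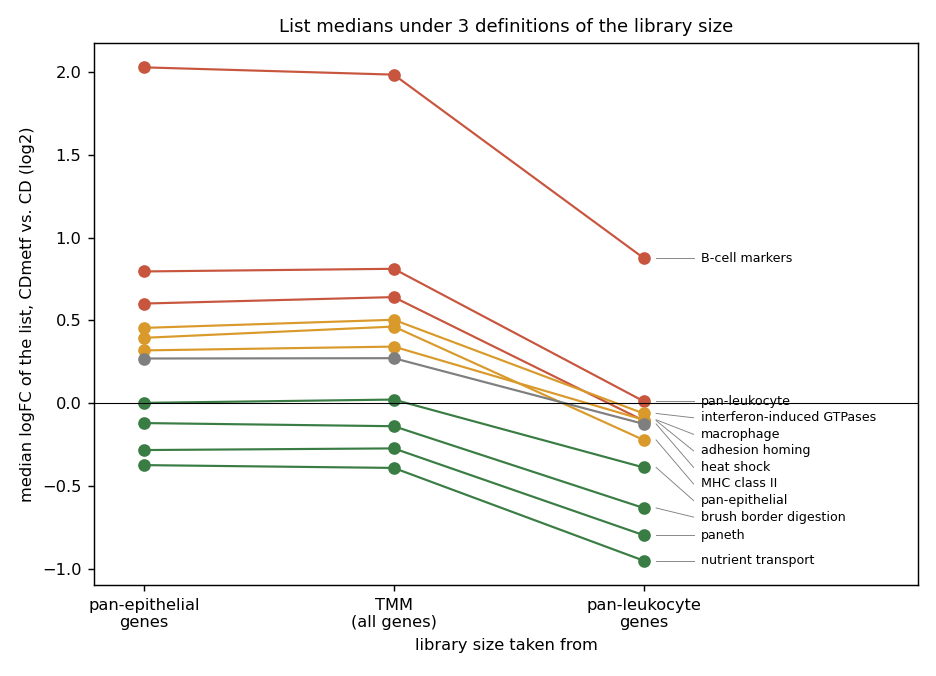
Median logFC (log2) of 11 gene lists with library sizes from pan-epithelial genes, from all genes (TMM) or from pan-leukocyte genes. B-cell markers stay above 0 on each scale, while interferon, MHC class II and adhesion lists drop to or below 0 on the last. The median of all genes is -0.46 there.

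Of 11 tested AMPK genes 8 lay above 0 with a median of 0.07. Prkaa1, the α1 catalytic subunit, had 47.8, 66.5 and 84.1 CPM in CD and 65.6, 82.2 and 94.4 CPM in CDmetf (logFC = 0.29, SE 0.14), and Prkab2, a β subunit, 8.36 to 12.5 and 6.85 to 11.1 CPM (logFC = -0.29, SE 0.14). Of 10 metformin transporters 8 were tested and 2 lay above 0 (median -0.11). The serotonin transporter gene Slc6a4, whose product also carries metformin, had 32.99 to 92.6 CPM in CD and 16.99 to 70.1 CPM in CDmetf (logFC = -0.51, SE 0.30). The 32 complex I genes had a median of -0.01. The 18 glycolysis genes had a median of 0.01, and Pfkm, the muscle phosphofructokinase, had 6.79 to 10.7 and 3.91 to 10.6 CPM (logFC = -0.56, SE 0.27). Of 10 genes of gluconeogenesis and fructose metabolism 1 lay above 0, with a median of -0.295 (-0.102 without CD M1) and 0 at an unadjusted p under 0.05. Among them Khk, the fructose kinase of enterocytes, had 57.7 to 275 CPM in CD and 27.8 to 148 CPM in CDmetf (logFC = -0.61, SE 0.34). In the integrated stress response 10 of 16 lay above 0 with a median of 0.14, yet the 2 at an unadjusted p under 0.05 were lower, Aldh1l2 of mitochondrial folate metabolism (logFC = -0.77, SE 0.27) and Psph of serine synthesis (logFC = -0.44, SE 0.21).

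Heat shock genes lay above 0 in 11 of 11 tested members, with a median of 0.27 and 4 at an unadjusted p under 0.05. Without CDmetf M2 that count was 1 and the median 0.22, and with library sizes from pan-epithelial genes it was also 1. The promoter of Hsph1, the HSP110 co-chaperone, is printed because it holds a pair of heat shock half-sites, in capitals (GAANNTTC or TTCNNGAA was searched on both strands).
Hsph1, chr5:149636337-149636586, minus strand: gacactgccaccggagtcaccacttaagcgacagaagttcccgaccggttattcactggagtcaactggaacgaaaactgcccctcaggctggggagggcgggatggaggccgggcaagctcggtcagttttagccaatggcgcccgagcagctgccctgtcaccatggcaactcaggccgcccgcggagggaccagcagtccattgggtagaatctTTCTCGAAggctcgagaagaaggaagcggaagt
The pair stood 33 bases before the start. Such a pair was present in 12.8% of all promoters and, in any of their promoters, in 7 of the 9 heat shock genes with a promoter sequence. Hsph1 had 20.6, 30.3 and 32 CPM in CD and 36.5, 48.6 and 77.6 CPM in CDmetf, without overlap (logFC = 0.88, SE 0.24, unadjusted p of 0.00117). Hspa8, the constitutive HSC70, had 559 to 1003 and 808 to 1200 CPM (logFC = 0.36, SE 0.15), and Hsp90aa1 67.5 to 148 and 107 to 182 CPM (logFC = 0.41, SE 0.16). Chordc1, an HSP90 co-chaperone, had a logFC of 0.27 (SE 0.12). For Hsph1 the highest libraries were CDmetf M2 with 77.6 CPM, whose B-cell sum lay within the CD range, and M1 with 56.5 CPM, whose B-cell sum lay above it.

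Other tissue in the piece varied between animals. Stromal and other tissue genes had a median of -0.01, 33 of 73 tested lying above 0. Fbln5, an elastic fibre protein, had 6.81 to 16.2 CPM in CD and 10.9 to 22.3 CPM in CDmetf (logFC = 0.63, SE 0.25). Acta1, skeletal muscle actin, was at 0.903 to 3.66 CPM in CD and at 0.533, 8.35 and 56.2 CPM in CDmetf (logFC = 2.58, SE 0.66), highest in CDmetf M1 and M2. Adipocyte genes had a median of -1.30, which was -0.24 without CD M3, and the perilipin gene Plin1 ranged from 0 to 68.0 CPM in CD. Summed over 10 pancreatic acinar genes, expression was 44.2 CPM in CD F1 and 50.4 CPM in CD M1, and at most 5.33 CPM in the other libraries. Only 1 of these genes passed the filter. The part of attached fat, muscle and pancreas in other values was not tested.

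The effect of metformin was also set apart by sex, with 3 animals per sex and group. No gene differed between the sexes at FDR 0.05 (smallest FDR of 0.179 over 14402 genes), and 5.21% had an unadjusted p under 0.05. The genes in the next sentences were chosen after their values were seen. G6pc, the glucose-6-phosphatase of gluconeogenesis, had 5.75 to 12.4 CPM in CD females and 14.6 to 32.8 CPM in CDmetf females, but 5.59 to 26.1 CPM in CD males and 0.518 to 1.17 CPM in CDmetf males. In neither sex did the groups overlap, and the CDmetf males had 2, 4 and 17 reads. The logFC was -4.23 (SE 0.75) in males and 1.30 (SE 0.55) in females, and the difference -5.53 (FDR = 0.179 in edgeR's quasi-likelihood test). Hspb1, the small heat shock protein HSP27, went the other way, by 1.16 in males and -0.72 in females (FDR = 0.606 for the difference). Such opposite, non-overlapping patterns were found for 50 genes, 0.347% of those tested.

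**Figure D5:**
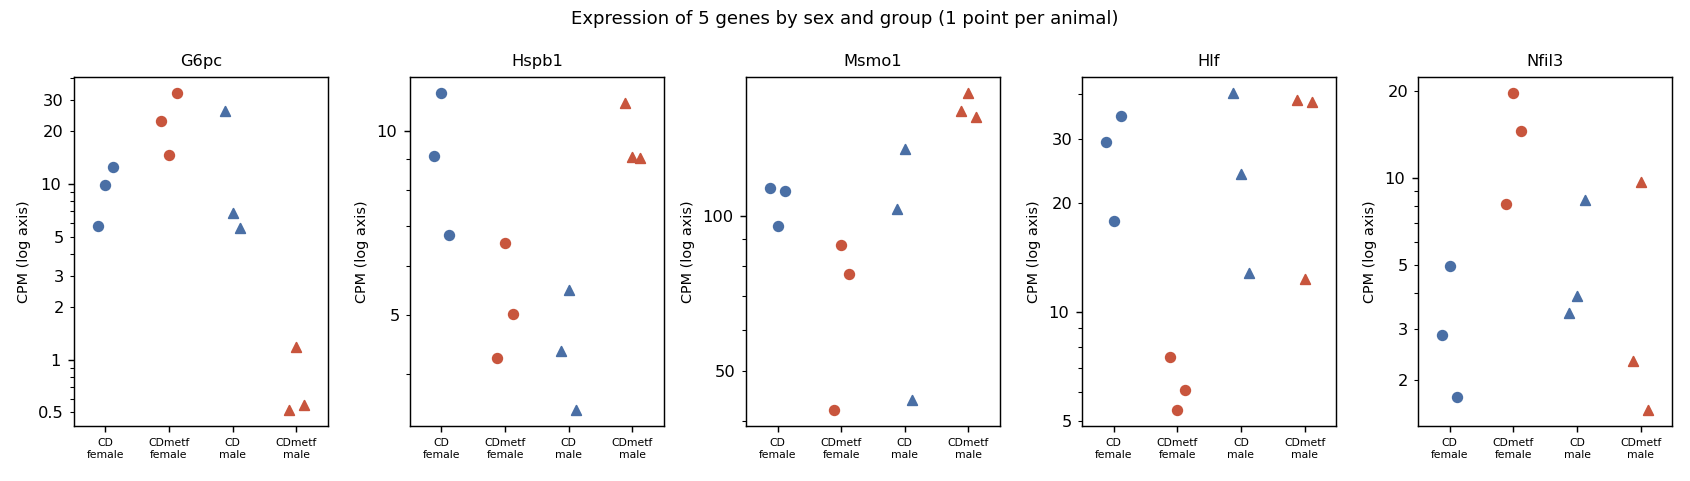
CPM (log axes) of 5 genes by sex and group, 1 point per animal. G6pc is higher in CDmetf than in CD females and lower in CDmetf than in CD males, and Hlf is lowest in CDmetf females.

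Circadian and sterol genes held, with all animals included, the highest numbers of differences between the sexes, 11 of 18 and 11 of 22 at an unadjusted p under 0.05. The median logFC of the clock list was 0.05 in males and -0.90 in females. Hlf, a PAR-domain clock output factor, had 17.8 to 34.8 CPM in CD females and 5.36 to 7.50 CPM in CDmetf females, against 12.8 to 40.4 and 12.3 to 38.6 CPM in males (difference 2.33, SE 0.64). Nfil3, its opponent on the same sites, had a difference of -2.76 (SE 0.83) and Bhlhe41 one of 1.53 (SE 0.53). Cry1, a core repressor of the clock, had a logFC of 0.71 (SE 0.33) over both sexes. Cholesterol synthesis had a median of 0.50 in males and -0.48 in females, as in Msmo1 (0.82 and -0.63) and Lss (0.59 and -0.57). Without CD M3 the counts were 4 of 18 and 5 of 22, against 8.67% of all genes, and other lists then held more, with 12 smooth muscle, 9 adipocyte, 8 enteric nervous and 7 lipid absorption genes. Without CDmetf F3 the counts were 5 and 14, against 4.3%. With 1 animal left out they ranged from 4 to 12 and from 5 to 14. The hour at which each animal was sampled is not given in the sources used here. Other genes with a difference were Irf8, an interferon regulatory factor (-0.92, SE 0.28), Nfkbiz, a nuclear IκB protein (-1.23, SE 0.38), and Prkaa2, the α2 subunit of AMPK (1.26, SE 0.35). B-cell markers had a positive median in both sexes, 1.27 in males and 2.46 in females, with 0 of 22 differing at an unadjusted p under 0.05.

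The test of whether the effect of metformin differed on the high-fat diet called 0 genes in edgeR's quasi-likelihood test and 4 in DESeq2, with 778 at an unadjusted p under 0.05, 3.01% with a negative and 2.75% with a positive interaction. Because both effects are set against their own controls, the interaction is a difference of differences. It was -5.35 (SE 1.34, FDR = 0.627 in edgeR's quasi-likelihood test) for Ms4a1, -0.84 (SE 0.27) for Rel, -0.72 (SE 0.29) for Blnk, -1.49 (SE 0.90) for Ighv14-3 and 1.62 (SE 0.47) for Nrg4. Of the 22 B-cell markers 21 had a negative interaction at an unadjusted p under 0.05, with a list median of -3.93.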

How the data were processed

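Ileal RNA of 12 control-diet mice (CD and CDmetf, n = 6 each) was compared within the full set of 24 libraries. Directional libraries were made after depletion of ribosomal RNA. The authors deposited raw counts per gene, for which they used Trimmomatic 0.39 for trimming, the GRCm38 genome, and STAR 2.5.3a for both alignment and counting. Which annotation and which strand were counted is not given in the sources used here, so overlapping and antisense genes are uncertain. Reads per library set the precision, 3 counts being 0.0727 to 0.990 CPM.

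From these counts, genes were filtered with filterByExpr and scaled with TMM in edgeR 4.0.16 (R 4.3.3), and a quasi-likelihood model with group, sex and replicate number as block was fitted to 24 libraries (17 residual degrees of freedom) with Benjamini-Hochberg adjustment at 0.05. The study's model had a sequencing block; the labels give replicate numbers only, and whether these are its blocks is not given in the sources used here. Among same-sex libraries of the same number, deviations from the group means correlated at -0.0826 to 0.584. The sexes were compared in a model of 8 groups. Groups were taken from the sample labels. The smallest chi-square per degree of freedom between replicates was 17.1, so no library was a duplicate. P-values rest on the spread between animals within groups, pooled over all 24 libraries. In the 12 control-diet libraries alone 867 of 14104 genes had an unadjusted p under 0.05 in the same test, against 675 of 13505. Alternatives used limma 3.58.1 and DESeq2 1.42.0, other scalings, filters and samples, and 2 settings added after seeing the data. Scripts were tested on simulated data. Promoter sequences came from RefSeq and coordinates from GRCm38. Named genes were Blnk, Rel and Ighv14-3, the 12 with the smallest p in each direction (mean log2 CPM above 1, no Gm or Rik symbols) and the 3 with the smallest p per list, with other members of the NF-κB, receptor-signalling, AMPK and transporter lists by value. A few genes that the rule names are not reported here. Other genes given (Chordc1, those shown for the sexes and levels of single markers) were chosen after their values were seen. The comparison, its members and the 54 gene lists were chosen with earlier results of these data known.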

Additional observations from a re-analysis of the deposited data

Results flagged for a closer look

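Of 200 groups of 6 values examined for a sample far from the rest, 33 had one, where chance gives about 1 in 20 for independent, normally distributed values. The rate for CPM of genes that vary together was not tested. CDmetf F2 was that sample in 11 cases, CD F1 in 6, CDmetf F3 and CD M1 in 4 each and CD M3 in 2. In CD F1 these were B-cell genes, with 173 CPM summed over the B-cell list against 80.8 CPM in the next control, 7.39 CPM for Ms4a1, 8.79 CPM for Cd79b, 3.61 CPM for Ltb, 11.7 CPM for Ighd and 3.37 CPM for H2-Eb2. In CDmetf F2 they were Ms4a1 (48.6 CPM), Prkcb (46.2 CPM), Ltb (12.51 CPM), Ighd (102 CPM), Ighm (299 CPM), Slamf7 (14.6 CPM), Cd28 (11.3 CPM), Icam1 (11.3 CPM), Ighv1-18 (62.3 CPM), H2-M3 (5.07 CPM) and Acot2 (20.6 CPM). CDmetf F3 stood out for Ighv1-7 (287 CPM), Irgm1 (58.8 CPM), Igtp (31.4 CPM) and Aldh1l2 (4.10 CPM).

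CD M1 stood out for Tmem88b (6.60 CPM), Ccdc57 (7.03 CPM), G6pc (26.1 CPM) and Irf8 (92.4 CPM), and CD M3 for Lrig3 (52.4 CPM) and Trpm5 (32.4 CPM). CD F2 did so for Ighv1-18 (10.2 CPM) and Lyz2 (75.9 CPM), CD F3 for Rela (24.8 CPM), CDmetf M1 for Ccdc57 (4.66 CPM) and CDmetf M2 for Ces2a (14.3 CPM) and Psph (4.98 CPM).

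In 5 of the genes named here, CDmetf and CD did not overlap in either sex and lay in opposite order in males and females. Over all genes tested 50 (0.347%) met this rule. The difference, males minus females, was -5.53 for G6pc, 1.88 for Hspb1, 1.45 for Msmo1, 1.17 for Lss and -0.92 for Irf8. By edgeR's quasi-likelihood test the FDR of these differences was between 0.179 and 0.912, and the cause was not tested.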

How the results depend on the processing

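The count of 0 genes for CDmetf vs. CD became 4 with DESeq2 and 10 with voom and quality weights, and was 0 in the other settings run, including each left-out animal and the fit with no replicate block, where 505 genes had an unadjusted p under 0.05. Pairing by number was not established, since one of the 6 correlations was negative. Against 675 genes at that p, 380 were found on the pan-epithelial scale, 1223 on the pan-leukocyte scale (2.1% of them higher, against 46.7%), 1714 with quality weights, 393 with at least 10 reads in every sample, 1690 without a filter, 1270 in control-diet samples without CD M3 and 462 to 843 with 1 animal left out. For the difference between the sexes 7 genes passed with DESeq2, 1499 with quality weights, 8 without a filter, 1 in the 12 control-diet samples and 0 to 1 with 1 animal left out (Ighv1-47 without CD F2, G6pc without CD M3, both named after their values were seen). For the interaction DESeq2 gave 4 and quality weights 498.

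On the pan-leukocyte scale the median of all genes was -0.463. The medians became -0.467 for epithelial, -0.119 for lymphoid, -0.386 for metabolic and -0.251 for myeloid genes. They were -0.388 for pan-epithelial and 0.012 for pan-leukocyte genes, the latter as follows from the scaling. There Rel turned to -0.073, Fcgr2b to -0.004, Slamf7 to -0.089, Irf4 to -0.119, Laptm5 to -0.038, Nfkb2 to -0.212, Rela to -0.25, Unc93b1 to -0.214, H2-Aa to -0.048, Irgm1 to -0.07, Gbp9 to -0.114, Hspa8 to -0.015, Chordc1 to -0.125 and Prkaa1 to -0.119. With the B-cell score the B-cell median was 0.014 and the count of B-cell markers at an unadjusted p under 0.05, 19 at first, was 0, and Ltb turned to -0.149, Ighd to -0.529, Ighm to -0.403 and H2-Eb2 to -0.35. That count was 9 on the pan-leukocyte scale, 11 with voom and 1 with 10 reads in every sample, where most markers failed the filter. In the 12 control-diet samples it was 11 of 14 tested, and without CD M3 there it was 12. With 1 animal left out it was 8 (without CDmetf F2) to 20 (without CD M3). The cause was not tested. Depth limits genes near 3 counts.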
